A study of Mus musculus with 44 samples.

Results

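The comparison described here is that of resting NCoR knockout macrophages with their floxed controls, NKO_Veh against WT_Veh. Its 4 RNA-seq libraries, 2 per genotype, were chosen by their genotype and treatment labels from 44 libraries of the series, and 13407 of the 24940 genes listed in their count table had enough reads to be tested. The cells were mouse bone marrow-derived macrophages (BMDMs), grown out of bone marrow with M-CSF in culture, and by the study's methods the marrow came from young adult C57BL/6 mice. By the same methods the cells were serum-starved before the treatment, in a medium for which no M-CSF is listed. WT_Veh cells carried NCoR flox/flox without Cre, NKO_Veh cells carried NCoR flox/flox with LysMCre, and both received vehicle (Veh) for 6 h. Both genotypes therefore carried the floxed allele, and LysMCre, which expresses Cre from the Lyz2 locus in myeloid cells, was present in NKO cells alone. The 4 libraries carried the same date stamp in their names. The labels do not say whether the 2 libraries of a genotype came from separate mice or cultures, so the tests measure the spread between these libraries, and if each genotype came from 1 mouse, mouse and genotype cannot be told apart.

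NCoR, encoded by Ncor1, is a large nuclear scaffold protein that brings the histone deacetylase HDAC3 to transcription factors bound to DNA. Its classical partners are nuclear receptors without ligand, among them the liver X receptors (LXRs), which control cholesterol efflux and fatty acid synthesis, the retinoic acid and thyroid hormone receptors, and REV-ERBα, a repressor of the circadian clock. In macrophages, NCoR is also known for holding inflammatory promoters in check until a signal removes it. The comparison asks what resting macrophages express when NCoR is missing before any signal is given.

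The libraries held 12005166 to 15217818 reads in genes (84.6% to 85.4% of the mapped reads), and a count of 3 corresponded to 0.197 to 0.25 CPM (reads of a gene per 1e6 reads in genes) before scaling. Unless stated otherwise, levels are TMM-scaled CPM, differences are log2 fold changes of NKO_Veh minus WT_Veh ± SE from edgeR's quasi-likelihood fit, and FDR is the Benjamini-Hochberg adjusted p over all genes tested. A gene was called when its FDR was below 0.05 and its fold change above 1.5. Xist was high and the Y-linked genes Ddx3y, Eif2s3y, Kdm5d and Uty had 0 counts in each of the 4 libraries, so all came from female mice.

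Ncor1 itself was at 162 and 169 CPM in WT_Veh and at 56.4 and 57.6 CPM in NKO_Veh, a log2 fold change of -1.54 ± 0.06 (FDR = 5.78e-28). Exons outside the deleted part are counted too, so the remaining reads in NKO cells do not give the amount of intact transcript. Lyz2, the lysozyme gene that holds the Cre insertion, was at 9288 and 9129 CPM in WT_Veh and at 4581 and 4626 CPM in NKO_Veh, a fold change of 0.500 (FDR = 2.58e-07). Macrophage markers were abundant in all 4 libraries, with Cd68, Csf1r, Itgam and Spi1 each at 476 unscaled CPM or more, but their summed level was lower in NKO_Veh (14177 and 14371) than in WT_Veh (21638 and 22054), mostly through Lyz2. Adgre1, which encodes the macrophage antigen F4/80, was at 1792 and 2082 CPM in WT_Veh and 1213 and 1238 CPM in NKO_Veh (-0.66 ± 0.05, FDR = 1.86e-15), and Cd14, a co-receptor for lipopolysaccharide, also fell (-0.82 ± 0.08, FDR = 1.97e-08). In the vehicle libraries without Cre of the other count tables (Veh, DMSO_Veh and Pgc1b_flox_Veh), Adgre1 was at 1441 to 1985 unscaled CPM. This was set beside 2156.5 and 2472 in WT_Veh and 1408 and 1427 in NKO_Veh without a test. In bulk libraries such as these, fewer cells of a type and less RNA per cell cannot be told apart.

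Markers of other cells were rare. The summed unscaled CPM of the 10 neutrophil markers was 9.69 and 4.31 in WT_Veh and 6.83 and 6.57 in NKO_Veh, with Ly6g and Retnlg at 0 throughout. The 7 dendritic cell markers summed to between 1.18 and 2.42 CPM, with Siglech at 0. T cell (Cd3e, Cd3g and Cd8a at 0), NK cell (Ncr1, Gzma, Gzmb and Prf1 at 0), mast cell, eosinophil (Epx, Ear6 and Il5ra at 0) and erythroid markers summed to less than 1 CPM each in every library. The 5 B cell markers summed to between 2.69 and 3.81 CPM, mostly from Cd79b. The 6 stromal markers were higher in WT_Veh (117 and 105 CPM) than in NKO_Veh (76.6 and 76.6 CPM), mainly through the collagen genes Col1a1, Col1a2 and Col3a1, with Lum at 0, and the 4 endothelial markers, mostly Kdr, were at 6.71 and 8.45 against 4.00 and 4.73 CPM. The part of these differences in the results was not tested.

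Loss of NCoR at rest was accompanied by 322 genes called higher (2.4% of those tested) and 510 called lower (3.8%). All 322 higher genes had both NKO libraries above both WT libraries, and 506 of the 510 lower genes had both NKO libraries below, whereas 26.1% of all tested genes lay wholly above and 29.1% wholly below. The median log2 fold change over all tested genes was -0.01. The higher genes with the largest changes were Scd1, Mmp9, Siglecf, Scd2, Flnc, Ccl6, Nr1d1, Mmp13, Vsig8, Eef1a2, Myrf and Slc27a6, which rose by 1.86 to 3.97 on the log2 scale and stayed called without any 1 of the 4 libraries. The lower genes with the largest changes, at a mean of 5 CPM or more in a genotype, were Saa3, Ccl5, Acod1, Ifi44, Ifit3, Nxpe5, Fgl2, Ifit2, F830016B08Rik, C3, AW112010 and Irf7. In each of these 12 genes WT_Veh replicate 2 was far above WT_Veh replicate 1, for example for Saa3, an acute phase protein, at 0.894 and 13.6 CPM in the 2 WT libraries against 0.431 and 0.342 CPM in the NKO libraries.

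**Figure D1:**
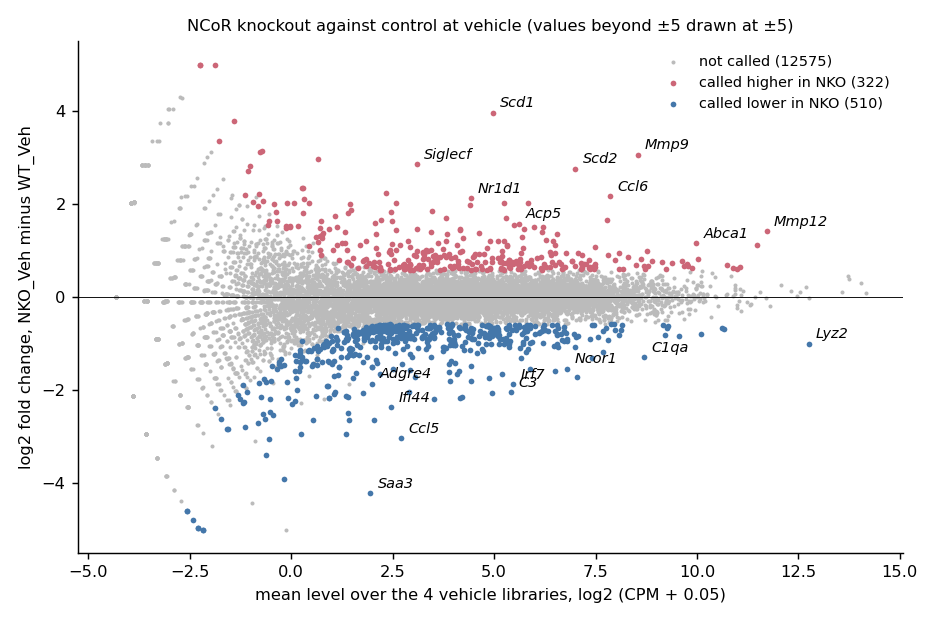
Log2 fold change of NKO_Veh over WT_Veh (vertical axis) against the mean level over the 4 vehicle libraries in log2 CPM (horizontal axis), 1 point per tested gene, with the 322 called higher and 510 called lower genes in colour. Scd1, Mmp9, Siglecf and Scd2 lie highest among the labelled genes, and Saa3 and Ccl5 lie lowest.

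The 2 WT_Veh libraries differed from each other more than the 2 NKO_Veh libraries did. Of 9767 genes at 5 CPM or more, 143 differed by more than 1.5-fold between the WT libraries and 17 between the NKO libraries. In 113 of the 510 genes called lower (22.2%), WT_Veh replicate 2 was more than 1.5 times WT_Veh replicate 1. Without WT_Veh replicate 2, 287 genes were called higher (2.14%) and 403 lower (3.01%), of which 237 and 310 were among the calls made with both. A set of 195 higher genes (1.45%) and 186 lower genes (1.39%) was called in every refit that left out 1 of the 4 libraries. These are referred to as stable calls.

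Several genes of lipid metabolism rose. Of 24 tested LXR targets and fatty acid synthesis genes, 7 were called higher, all of them stable, and 1 lower, and the median log2 fold change of the list was 0.32 (0.26 without WT_Veh replicate 2). Scd1 encodes a stearoyl-CoA desaturase, which puts a double bond into saturated fatty acids. It was at 3.44 and 4.04 CPM in WT_Veh and 59.9 and 57.5 CPM in NKO_Veh, a 15.6-fold increase (3.97 ± 0.15, FDR = 8.48e-24). The related desaturase Scd2 was at 29.4 and 36.2 and 229 and 218 CPM (2.76 ± 0.12, FDR = 6.04e-11). For both genes the 2 libraries of a genotype lay close together and the genotypes did not overlap. In 6 vehicle libraries without Cre from the other count tables (Veh, DMSO_Veh and Pgc1b_flox_Veh), which were prepared separately and are set beside these without a test, unscaled levels were 6.75 to 25.4 CPM for Scd1 against 4.14 and 4.79 in WT_Veh and 69.5 and 66.2 in NKO_Veh. For Scd2 they were 72.0 to 274.7 CPM, a range that takes in both NKO_Veh libraries (265 and 251) and lies above both WT_Veh libraries (35.4 and 43.0).

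Abca1, the transporter that hands cellular cholesterol to apolipoprotein A-I, was at 619.9 and 632 CPM in WT_Veh and 1426 and 1367 CPM in NKO_Veh (1.16 ± 0.08, FDR = 2.72e-10). Abcg1, which exports cholesterol to high-density lipoprotein, was at 592 and 581 and 1008 and 1001 CPM (0.78 ± 0.05), and Lpcat3, which puts polyunsaturated chains into phospholipids, was at 42.6 and 45.2 and 71.7 and 71.6 CPM (0.71 ± 0.07). Acaca, the enzyme that commits carbon to fatty acid synthesis, rose by 0.94 and the phospholipid transfer protein Pltp by 0.64 on the log2 scale. Srebf1, which encodes the lipogenic factor SREBP1, gave 0.54 ± 0.06 (FDR = 5.72e-10) and Fasn, the fatty acid synthase, 0.53 ± 0.12 (FDR = 0.00656), both under the 1.5-fold limit, and both were called without WT_Veh replicate 2 (0.62 and 0.71). Apoe gave -0.11 ± 0.13 and Lpl -0.03 ± 0.05. Cd5l, a secreted scavenger receptor protein, fell (921 and 1001 against 549 and 533 CPM, -0.83 ± 0.07, FDR = 4.83e-10), and Nr1h3, which encodes LXRα itself, was at 46.6 and 54.4 CPM in WT_Veh and 35.0 and 36.3 CPM in NKO_Veh (-0.50 ± 0.08, not called).

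The LXR response element is a direct repeat of a short motif. Written as GGTNA, 2 times in 1 orientation with 5 bases between, and searched on both strands of the RefSeq promoter windows (mm10, 250 bases before to 50 after the start), it was found before Abca1, 67 to 53 bases upstream of the window's start site at chr4:53159928-53159982 on the minus strand. The stretch is shown because Abca1 is the called LXR target whose promoter held the repeat. In the line, read 5′ to 3′ in the direction of the gene, the capitals mark the repeat, which lies on the opposite strand.
Abca1: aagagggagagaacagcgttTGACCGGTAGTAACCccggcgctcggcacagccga
The repeat was found in 0.483% of the 10136 promoters that could be matched to tested genes, in 0.431% of those of called higher genes and in 0.804% of those of called lower genes, and in 2 of 17 promoters of the LXR list.

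Genes of cholesterol synthesis and uptake were called higher in 8 of 24 cases and lower in none, with a median log2 fold change of 0.46. Sqle, squalene epoxidase, was at 20.4 and 25.5 CPM in WT_Veh and 50.0 and 55.2 CPM in NKO_Veh (1.20 ± 0.10, FDR = 4.33e-13). Mvd, a decarboxylase of the mevalonate pathway, was at 6.60 and 10.7 CPM in WT_Veh and 17.6 and 18.0 CPM in NKO_Veh (1.04 ± 0.15, FDR = 1.59e-07). Dhcr7 (0.78 ± 0.08), which catalyses a late reduction step, Hsd17b7 (0.65 ± 0.16) and Hmgcs1 (0.64 ± 0.12) also rose. WT_Veh replicate 2 was the higher of the 2 WT libraries in each of the 8 called genes, and without it 13 of 24 members were called higher and the median was 0.70. Without WT_Veh replicate 1 instead, the median was 0.27. Sqle, Mvd and Dhcr7 were among the stable calls, whereas Hsd17b7 and Hmgcs1 were not stable. The summed unscaled CPM of the 25 listed members was 1133 and 1275 in WT_Veh and 1519 and 1564 in NKO_Veh. Set beside these without a test, it was 1179 and 1201 (Veh), 1240.5 and 1248 (DMSO_Veh) and 1953 and 1911 (Pgc1b_flox_Veh) in the other tables, so the last pair lay above both NKO_Veh libraries.

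The sterol element bound by SREBP2, the factor that switches on this pathway, is shown for Hmgcs1, written as TCACNCCAC and found 137 to 129 bases before the start (chr13:119690194-119690242, plus strand, mm10, RefSeq). The capitals mark the element.
Hmgcs1: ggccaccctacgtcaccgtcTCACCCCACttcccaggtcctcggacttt
It occurred in 1.04% of all matched promoters, in 0.862% of called higher and 1.07% of called lower ones.

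Among 19 tested PPAR targets and lipid storage genes, 3 were called higher and none lower, with a median of 0.12. They were Plin2, the coat protein of lipid droplets (1393 and 1229.8 against 2089 and 2153 CPM, 0.69 ± 0.05), Hilpda, an inhibitor of droplet lipolysis (0.91 ± 0.19), and Angptl4, an inhibitor of lipoprotein lipase (0.59 ± 0.12). Angptl4 was not called without WT_Veh replicate 2 (0.43). The fatty acid transport protein gene Slc27a6, which is in none of the lists, was at 5.16 and 4.45 CPM in WT_Veh and 16.2 and 18.6 CPM in NKO_Veh (1.86 ± 0.18).

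**Figure D2:**
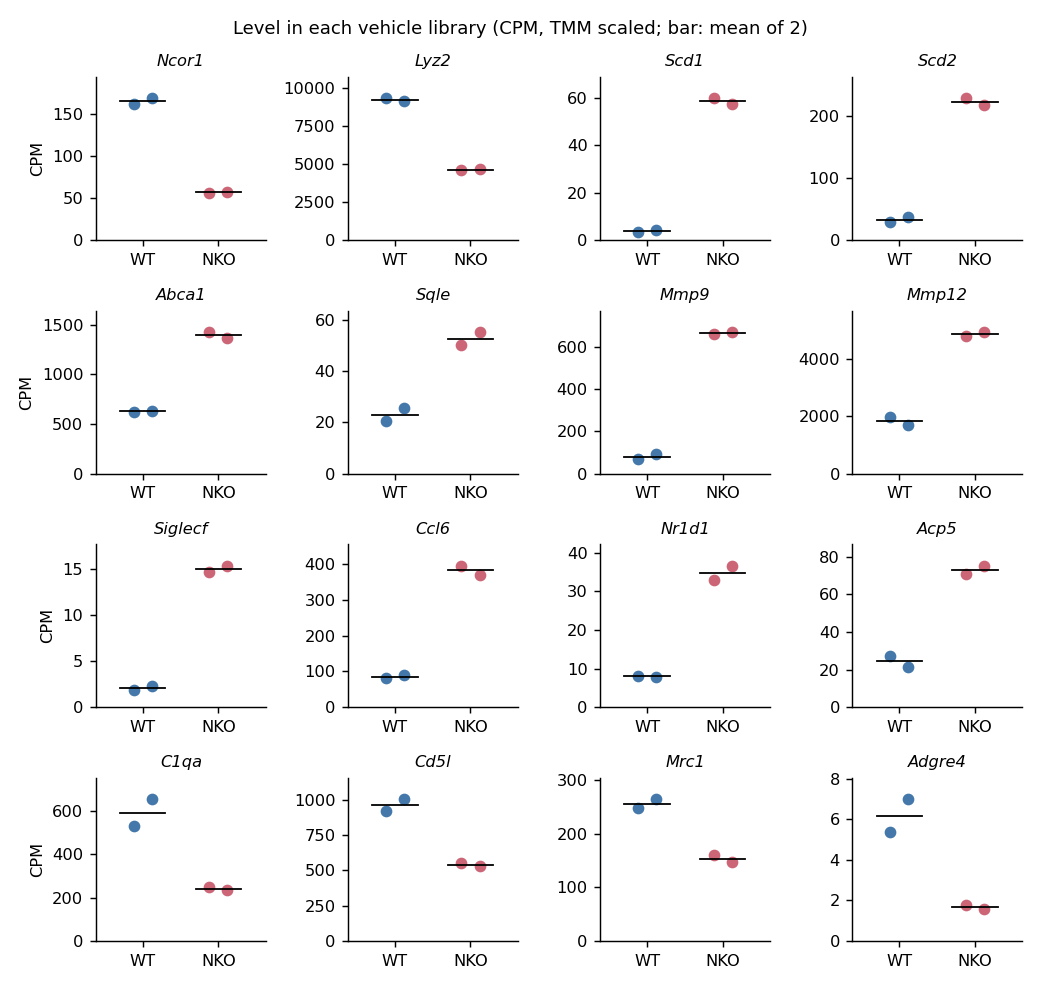
Level in each of the 4 vehicle libraries for 16 genes, in TMM-scaled CPM on linear axes starting at 0, with points for single libraries and bars for the mean of 2. Scd1 shows the largest fold change. The 16 genes were picked from the called ones, so the lack of overlap between WT and NKO points is no separate result. It holds for 322 of 322 higher and 506 of 510 lower calls. Over all tested genes, 26.1% lay wholly above and 29.1% wholly below.

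Of the NCoR complex, a second subunit moved besides Ncor1. Tbl1xr1, the WD-repeat subunit that exchanges corepressors, was at 137 and 146 CPM in WT_Veh and 220.4 and 220.1 CPM in NKO_Veh (0.64 ± 0.05, FDR = 9.48e-15). Its relative Tbl1x gave 0.43 ± 0.07, under the fold limit. Hdac3 (-0.09 ± 0.08), Gps2 (0.05 ± 0.09) and Coro2a (-0.03 ± 0.06) were not called.

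Among 14 tested transcription factors that bind NCoR, 3 were called higher and none lower, with a median of 0.08. Nr1d1, which encodes REV-ERBα, was at 8.12 and 7.87 CPM in WT_Veh and 32.8 and 36.6 CPM in NKO_Veh, a 4.35-fold increase (2.12 ± 0.12, FDR = 3.55e-21). Thra, the thyroid hormone receptor α gene, which overlaps the 3′ end of Nr1d1 on the opposite strand, was at 19.1 and 14.9 and 30.7 and 33.9 CPM (0.93 ± 0.11, FDR = 4.15e-10). The counting command names no strand option, whereas the study's methods describe strand-specific reads, so reads of this pair may have been shared. Rarg, a retinoic acid receptor, rose by 0.63 on the log2 scale but was not stable, and Bcl6 gave 0.52 ± 0.06, under the fold limit.

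Secreted proteases and chemokines included several of the largest increases. Of 15 tested matrix proteases and inhibitors, 4 were called higher and 1 lower, all of them stable, with a median of 0.37. Mmp9, a gelatinase, was at 66.7 and 92.8 CPM in WT_Veh and 662 and 669 CPM in NKO_Veh, an 8.34-fold increase (3.06 ± 0.21, FDR = 1.24e-07), whereas the 6 vehicle libraries of the other tables were at 13.9 to 143.7 unscaled CPM against 768 and 771 in NKO_Veh. Mmp12, the macrophage elastase, went from 1985 and 1687 to 4819 and 4946 CPM (1.41 ± 0.06, FDR = 3.96e-26). The collagenases Mmp13 (2.02 ± 0.15) and Mmp8 (0.90 ± 0.13) also rose. Mmp14, a membrane-bound protease, moved the other way, from 17.5 and 26.5 to 7.82 and 9.13 CPM (-1.37 ± 0.22, FDR = 5.04e-04). Outside this list, the cysteine protease gene Ctsl (1.13 ± 0.05) and the matrix protein gene Fn1 (1.65 ± 0.19) rose.

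Of 20 chemokines, 3 were called higher and 5 lower, with a median of -0.83 (-0.22, 2 higher and 2 lower without WT_Veh replicate 2). Ccl6 was at 80.5 and 89.4 CPM in WT_Veh and 395 and 368 CPM in NKO_Veh (2.17 ± 0.12, FDR = 1.11e-08), and Ccl9 at 275 and 307 and 602 and 562 CPM (1.00 ± 0.06). In the 6 vehicle libraries of the other tables Ccl6 ranged from 126 to 562 unscaled CPM, which takes in both NKO_Veh libraries (458 and 424) and lies above both WT_Veh libraries (96.9 and 106). Both are C-C chemokines that act through Ccr1, and Ccr1 was at 15.8 and 25.2 CPM in WT_Veh and 45.0 and 49.6 CPM in NKO_Veh (1.21 ± 0.12, FDR = 6.65e-08). It was the only one of 16 chemoattractant receptor genes called higher, and 6 were called lower, of which Cx3cr1 and Fpr2 were stable. Without WT_Veh replicate 2, 3 receptor genes were called lower. The third higher chemokine was Cxcl14 (0.75 ± 0.17), which was not stable. Ccl5, which attracts T cells and monocytes, was called lower (-3.04 ± 0.76, FDR = 0.0118), but its levels were 2.75 and 20.3 CPM in WT_Veh against 1.65 and 1.20 CPM in NKO_Veh, and without WT_Veh replicate 2 it fell by 0.97 (FDR = 0.019). Ccl4, a chemokine of activated macrophages, was the stable one among the lower chemokines (15.1 and 21.8 against 7.90 and 9.47 CPM, -1.07 ± 0.19). Cxcl10 gave -2.04 ± 0.66 with a level of at most 1.08 CPM in NKO_Veh, and Cxcl9 and Ccl22 had 3 counts or fewer in both NKO libraries.

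Siglecf, a sialic acid-binding inhibitory receptor known from eosinophils and alveolar macrophages, was at 1.86 and 2.26 CPM in WT_Veh and 14.6 and 15.3 CPM in NKO_Veh (2.86 ± 0.20, FDR = 4.7e-18). The eosinophil markers Epx, Ear6 and Il5ra had 0 counts in the 4 libraries of WT_Veh and NKO_Veh. The remaining marker of that list, Prg2, had 3 and 0 counts in WT_Veh and 1 and 1 in NKO_Veh. Of the other Siglec and CD300 receptors tested, 4 of 12 were called lower and none higher, among them Siglec1, the sialoadhesin of resident macrophages (248 and 334 against 157 and 150.4 CPM, -0.92 ± 0.10), and Cd300e, an activating receptor of monocytes (3.99 and 4.52 against 1.08 and 0.856 CPM, -2.14 ± 0.29).

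Osteoclast genes were called higher in 5 of 10 tested cases, all stable, and lower in none, with a median of 0.68 (0.59 without WT_Veh replicate 2). Osteoclasts arise from the same precursors as macrophages. Acp5, the tartrate-resistant acid phosphatase, was at 27.3 and 21.6 CPM in WT_Veh and 70.6 and 75.2 CPM in NKO_Veh (1.58 ± 0.09, FDR = 7.5e-20). Itgb3, the β3 integrin of the osteoclast adhesion ring, was at 16.2 and 11.2 and 36.5 and 35.2 CPM (1.39 ± 0.11), and Ctsk, the collagen-degrading cathepsin K, at 26.6 and 23.7 and 54.3 and 54.5 CPM (1.11 ± 0.08). Dcstamp, needed for cell fusion, gave 0.93 ± 0.13 and the kinase gene Src 0.80 ± 0.07. No RANKL had been given to these cells.

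Interferon-stimulated genes (ISGs) were called lower in 26 of 36 cases and higher in none, with a median of -0.87, against 3.8% of all genes called lower and a median of -0.01. This result rested largely on WT_Veh replicate 2. Irf7, the factor that amplifies the interferon response, was at 40.9 and 97.6 CPM in WT_Veh and 17.5 and 20.2 CPM in NKO_Veh (-1.87 ± 0.33, FDR = 9.87e-04). Ifit1, an antiviral protein that binds foreign RNA caps, was at 13.2 and 33.7 and 4.88 and 8.27 CPM (-1.80 ± 0.38, FDR = 0.00425). In both, WT_Veh replicate 1 lay above both NKO libraries but closer to them than to WT_Veh replicate 2.

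Without WT_Veh replicate 2, 6 of the 36 ISGs were called lower and the median was -0.40, with 30 of 36 below 0. The 6 were Ifi44 (-1.26, FDR = 3.83e-04), Irf7 (-1.11, FDR = 0.0041), Rtp4 (-1.05, FDR = 2.81e-10), Ifit3 (-1.01, FDR = 0.00431), Ifit1 (-0.97, FDR = 0.0469) and Oasl2 (-0.59, FDR = 4.47e-11), and these were also the stable members. Isg15, a ubiquitin-like protein that was not called with both libraries (-0.59 ± 0.43), gave 0.67 without that library. When the spread was estimated from the 4 vehicle libraries alone, with both WT libraries kept, 3 of the 36 ISGs were called. Without WT_Veh replicate 1 instead, 32 were called lower and the median was -1.23.

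**Figure D3:**
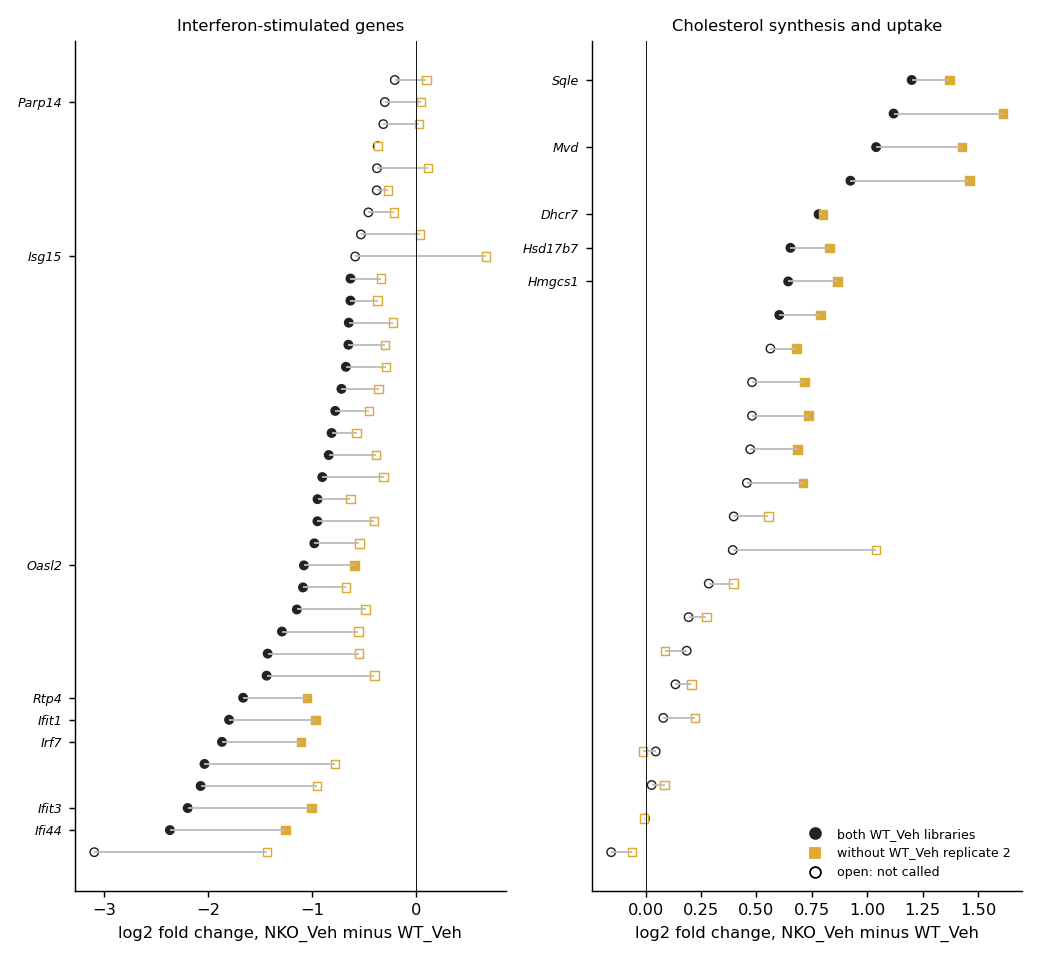
Log2 fold change of NKO_Veh minus WT_Veh for 36 interferon-stimulated genes (left) and 24 genes of cholesterol synthesis and uptake (right), with both WT_Veh libraries (circles) and without WT_Veh replicate 2 (squares), filled where called, with 1 row per gene and some genes labelled. The interferon genes move towards 0 without that library (median -0.87 to -0.40) and the cholesterol genes away from it (median 0.46 to 0.70).

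The summed unscaled CPM of the 36 ISGs was 1756 and 2979 in WT_Veh and 1269.9 and 1407 in NKO_Veh. The vehicle libraries of the other count tables, prepared separately and set beside these without a test, had 1603 and 1611 (Veh), 1784 and 1737 (DMSO_Veh) and 1445 and 1243 (Pgc1b_flox_Veh). WT_Veh replicate 2 thus lay above all of these, WT_Veh replicate 1 near their upper end, and both NKO_Veh libraries within their range near its lower end. For Irf7 alone, these 6 libraries were at 22.4 to 35.7 unscaled CPM, against 49.3 and 115.9 in WT_Veh and 20.3 and 23.3 in NKO_Veh. With IL4, the sum was 1828 and 1826 in WT and 1472 and 1543 in NKO cells. With IFNβ it was 10667 and 11822 in WT against 11961 and 12638 in NKO, and with poly I:C 68171 and 69866 against 61767 and 63653.

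**Figure D4:**
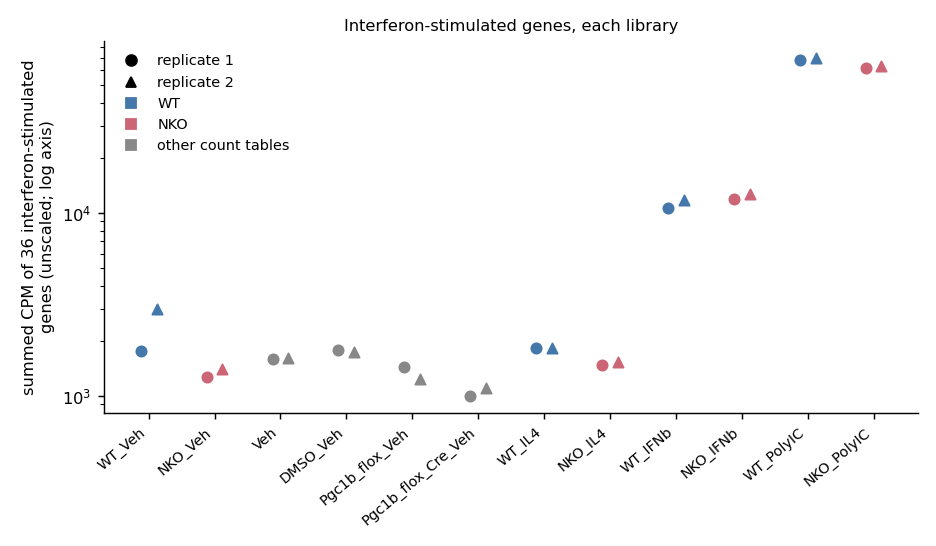
Summed unscaled CPM of 36 interferon-stimulated genes in each library (log axis) by group, circles for replicate 1 and triangles for replicate 2, WT blue, NKO red and other count tables grey. WT_Veh replicate 2 (2979) lies above every other library without interferon or poly I:C shown, and both NKO_Veh libraries (1269.9 and 1407) lie below both WT_Veh libraries.

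The interferon-stimulated response element was counted in the promoters as a description. Written as TTCNNTTTC and searched on both strands, it was found in 7.49% of all 10136 matched promoters, in 6.03% of called higher genes, in 19.6% of called lower genes (73 of 373), in 22.2% of stable lower genes (30 of 135) and in 16 of 25 promoters of the ISG list. The sites of 3 stable members are shown with capitals marking each element (mm10, RefSeq, plus strand), for Ifit1 at chr19:34640760-34640833 with the sites 109 to 76 bases before the start, for Ifit3 at chr19:34583354-34583455 with 155 to 94, and for the GTPase gene Gbp3 at chr3:142559980-142560034 with 44 to 30. Where capitals run past 9 bases, 2 elements overlap.
Ifit1: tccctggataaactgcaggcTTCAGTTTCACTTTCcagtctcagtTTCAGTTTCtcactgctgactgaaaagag
Ifit3: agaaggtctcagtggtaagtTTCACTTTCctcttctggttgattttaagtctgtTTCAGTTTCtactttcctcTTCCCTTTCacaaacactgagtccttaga
Gbp3: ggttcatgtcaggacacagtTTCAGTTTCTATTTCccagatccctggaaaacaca
The NFκB motif GGGANNNNC was found in 65.3% of all promoters, 66.8% of called higher and 61.7% of called lower ones, and the AP-1 motif TGANTCA in 5.07%, 9.48% and 9.65%.

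The interferon-inducible GTPases, which attack the vacuoles of intracellular pathogens, followed the ISGs. Of 14, 11 were called lower and none higher, with a median of -1.52 (-0.76 and 4 called without WT_Veh replicate 2). Gbp9 was at 26.8 and 36.2 CPM in WT_Veh and 11.6 and 11.1 CPM in NKO_Veh (-1.47 ± 0.12, FDR = 4.29e-10), and here the WT libraries lay close to each other. Gbp2, by contrast, was at 22.1 and 67.4 and 14.1 and 12.7 CPM (-1.74 ± 0.38, FDR = 0.00481). Of 14 interferon receptors, kinases and factors, 1 was called, Socs1, a feedback inhibitor of the pathway (-1.06 ± 0.36), and it was not stable. The receptor genes Ifnar1 (-0.19 ± 0.06), Ifngr1 (-0.11 ± 0.05) and Ifngr2 (-0.08 ± 0.05) were not called.

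Of 21 tested NFκB target genes, 6 were called lower and none higher, with a median of -0.77 (-0.26 without WT_Veh replicate 2). Il10, which encodes an anti-inflammatory cytokine, was at 2.20 and 1.85 CPM in WT_Veh and 0.215 and 0.285 CPM in NKO_Veh (-2.94 ± 0.40, FDR = 4.17e-08), with 32 and 27 against 3 and 5 counts. Il1b, a pyrogenic cytokine, was at 1.99 and 7.18 and 0.431 and 0.970 CPM (-2.64 ± 0.61) and was not stable. Icam1, an adhesion molecule, was at 56.8 and 81.7 and 36.1 and 33.3 CPM (FDR = 1.95e-05), and it was stable, as were Il10 and Ccl4. Acod1, the enzyme that makes itaconate, was at 2.82 and 11.1 and 1.08 and 1.14 CPM and was called in 3 of the 4 refits with 1 library left out. Of 12 inflammasome genes, Nlrp3 (31.6 and 41.3 against 15.6 and 16.7 CPM, -1.17 ± 0.11), Casp4, the sensor of cytosolic lipopolysaccharide (-1.12 ± 0.15), and Mefv (-2.13 ± 0.38) were lower, all of them stable, and none was higher. Nlrp3 lies within 5 Mb of Ncor1 on chromosome 11.

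All called genes of the complement, Fc receptor and scavenger receptor lists were lower. The 3 chains of complement C1q, which tags debris and dying cells, fell together, with C1qa at 530.3 and 655 CPM in WT_Veh and 247 and 237 CPM in NKO_Veh (-1.29 ± 0.07, FDR = 2.89e-13), C1qb at -0.70 ± 0.05 and C1qc at -0.80 ± 0.06 on the log2 scale. Fcgr1, the high-affinity IgG receptor, was at 192 and 298 and 95.0 and 102 CPM (-1.31 ± 0.14, FDR = 1.4e-05). In the vehicle libraries without Cre of the other tables, set beside these without a test, Fcgr1 was at 97.4 to 204.7 unscaled CPM. Both NKO_Veh libraries (110 and 117) lay within that range and both WT_Veh libraries (231 and 354) above it. C3, the central complement component, was at 32.4 and 105 and 16.0 and 17.2 CPM (-2.05 ± 0.41). These 5 of 12 complement and Fc receptor genes were stable, and the list's median was -0.75 (-0.51 without WT_Veh replicate 2). Of 20 scavenger and engulfment receptors, Clec7a, the receptor for fungal β-glucan, was higher under the fold limit (0.36 ± 0.06, FDR = 9.22e-07) and 4 were called lower, all stable, namely Mrc1, the mannose receptor (249 and 265 against 161 and 147 CPM, -0.74 ± 0.06), Stab1 (-0.66 ± 0.11) and the fungal sensors Clec4n (4.47 and 7.05 against 1.94 and 2.11 CPM) and Clec4e (-1.71 ± 0.38). Adgre4, a relative of F4/80, was at 5.37 and 6.98 and 1.79 and 1.60 CPM (-1.87 ± 0.25, FDR = 2.75e-08).

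Antigen presentation by MHC class II was lower in 6 of 10 genes, with a median of -0.81 (-0.52 and 3 called without WT_Veh replicate 2). H2-Ab1 was at 41.0 and 55.7 CPM in WT_Veh and 26.2 and 25.7 CPM in NKO_Veh (-0.90 ± 0.15, FDR = 3.58e-04), and Ciita, the master regulator of the class, at 6.26 and 8.69 and 3.88 and 3.71 CPM (-0.98 ± 0.19). H2-Ab1, H2-Eb1 and Ciita were stable, whereas Cd74, the invariant chain, was not (194 and 293 against 130.4 and 137 CPM). Of 15 tested genes of alternative activation, 3 rose and 2 fell. The transcription factor genes Egr2 (56.7 and 48.0 against 131 and 138 CPM, 1.36 ± 0.11, FDR = 1.54e-07) and Klf4 (0.84 ± 0.12) were stable, the integrin gene Itgax was not, and Mrc1 and Flt1 were the lower ones.

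Genes of cell division were lower in 9 of 28 cases and higher in none, with a median of -0.42. Here leaving out WT_Veh replicate 2 gave 12 lower calls and a median of -0.59, and leaving out WT_Veh replicate 1 gave 2 lower calls and -0.32. Ccnd1, which encodes cyclin D1 and answers to M-CSF, was at 113 and 136 CPM in WT_Veh and 60.2 and 63.4 CPM in NKO_Veh (-1.01 ± 0.07, FDR = 1.06e-16). Cdk1, the mitotic kinase, was at 17.4 and 15.2 and 9.26 and 9.98 CPM (-0.76 ± 0.14, FDR = 4.57e-05). These were the stable members, and Rrm2 (-0.80 ± 0.22) and Cdc20 (-0.90 ± 0.22) were among the others. None of 18 genes of glycolysis and hypoxia was called by edgeR or DESeq2, with a median of -0.04. At an FDR below 0.05 without the fold limit, 3 of them were higher and 3 lower, against 1291 and 1399 of all 13407 tested genes. Gapdh was listed at a mean of 0.412 CPM in WT_Veh, and as a gene with many near-identical copies it is uncertain in these counts.

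The changes at rest were set beside those in NKO cells given poly I:C (a mimic of double-stranded RNA), IFNβ or IL4 under the same date stamp, in contrasts that share no library with the vehicle contrast. With poly I:C 403 genes were called higher (3.01%) and 392 lower (2.92%), with IFNβ 250 higher (1.86%) and 260 lower (1.94%), and with IL4 255 higher (1.9%) and 313 lower (2.33%). Of the 322 genes higher at rest, 143 were also called higher with poly I:C, 175 with IFNβ and 152 with IL4, and 86 (26.7%) with all 3. Of the 510 lower genes, 122, 143 and 150 were also called lower, and 50 (9.8%) with all 3. Scd1 (log2 fold change 2.92 with poly I:C, 3.79 with IFNβ and 3.76 with IL4), Mmp9 (3.35, 3.23 and 3.25), Siglecf (2.64, 3.23 and 3.25) and C1qa (-1.01, -0.99 and -1.13) were called in every condition.

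The difference between the effect at rest and with a ligand was tested as an interaction. It was called for 434 genes with poly I:C (3.24%), 81 with IFNβ (0.604%) and 81 with IL4 (0.604%), and the IFNβ count ranged from 45 to 258 with 1 vehicle library left out. Among the genes called at rest it was called for 154, 57 and 51. These genes were chosen for a large effect in the vehicle libraries, which also enter the interaction, and that choice favours smaller effects with a ligand, so the counts are a description. Of those lower at rest, 101 had a called interaction with poly I:C and 53 with IFNβ. Of those higher at rest, 53 and 4 did. For the ISG list, the median effect of NKO was -0.19 with poly I:C, 0.16 with IFNβ and -0.23 with IL4, with 1, 0 and 1 members called lower and 0, 2 and 0 higher. Ifit1, for instance, gave 0.04 with poly I:C and 0.59 with IFNβ, and its interaction was called for both, but not for poly I:C without WT_Veh replicate 2. Abca1 rose more with poly I:C (1.92) than at rest, whereas Mmp13 (0.44) was not called there, and both interactions were called.

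**Figure D5:**
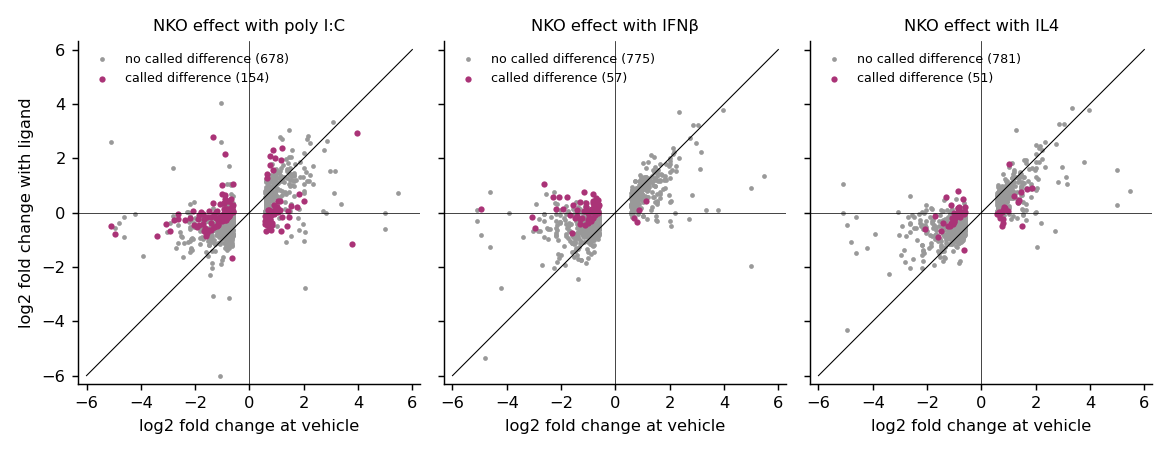
Log2 fold change of NKO over WT with poly I:C (left), IFNβ (middle) and IL4 (right) against that at vehicle, 1 point per gene called at vehicle, coloured where the interaction was called (154, 57 and 51 genes) with the line of equal effect drawn. Of the coloured genes, 101 with poly I:C and 53 with IFNβ were lower at vehicle, and all genes shown were chosen by their vehicle effect, which enters the interaction.

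LysMCre was present in NKO cells alone, so the vehicle libraries with and without Cre in the Pgc1b table were added as a comparison after the values were seen. These cells carried floxed Pgc1b, so Cre and loss of Pgc1b cannot be told apart in them, and they came from male mice. There, 20 of 12205 tested genes were called higher (0.164%) and 17 lower (0.139%). Lyz2 was at 8108 and 8325 CPM without Cre and at 4397 and 4422 CPM with it (log2 fold change -0.90 ± 0.05, FDR = 3.41e-14). Of the 322 genes higher in NKO_Veh, 301 were tested there, 11 were called higher, among them Acp5 and Fn1, and 1 lower (Cav1). Of the 510 lower genes, 473 were tested, 12 were called lower and 1 higher (Mmp14). The 12 were Lyz2, Gbp9, Ifi211, Ifi27l2a, Irf7, Ly6e, Oas3, Oasl1, Pla2g16, Rtp4, Serpinb6b and Xaf1. Of the 36 ISGs, 6 were called lower and none higher there, with a median of -0.36, and Irf7 was at 19.4 and 18.2 against 9.29 and 11.3 CPM (-0.87 ± 0.12, FDR = 1.94e-05). None of the LXR, cholesterol, NCoR complex, NFκB, complement, MHC class II or cell division genes was called there.

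For lists with no call in 1 direction, the other counts in that direction were as follows. Over all 13407 tested genes, 1880 were higher and 2149 lower at an unadjusted p below 0.05 in edgeR's fit. DESeq2 called 285 higher and 440 lower. At an unadjusted p below 0.05, no gene of the ISG, GTPase, NFκB, MHC class II, cell division or inflammasome lists was higher, none of the cholesterol or osteoclast lists was lower, and DESeq2 made no such call either. In the same terms, 1 complement or Fc receptor gene and 3 scavenger receptor genes were higher and 2 PPAR targets lower, again with no DESeq2 call. Of these, 2 scavenger receptor genes (Clec7a and Cd36) also had an FDR below 0.05. Of the transcription factors that bind NCoR, 2 were lower, and 1 of the interferon receptors and factors (Jak1) was higher. In the Siglec and CD300 list, 3 receptors besides Siglecf were higher. These genes had no DESeq2 call. Nr1h3, Jak1 and Cd300lb also had an FDR below 0.05.

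Genes close to the engineered loci were counted, since flanking sequence of the targeted strain can be inherited with each. Within 5 Mb of Lyz2, 1 of 38 tested genes was called (2.63%), and within 5 Mb of Ncor1 8 of 101 (7.92%), 3 higher (F930015N05Rik, Hs3st3a1 and Lrrc75a) and 5 lower (4933439C10Rik, Gm12250, Igtp, Irgm2 and Nlrp3). Over all tested genes, 6.21% were called in either direction. Both genotypes carried the floxed Ncor1 allele.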

How the data were processed

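The authors deposited a table of raw counts per gene. They aligned reads to mm10 with STAR and counted those in exons with HOMER, keeping 1 transcript per gene without normalization (versions not given in the sources used here). The headers name no strand option. The 1346 listed genes under 250 bp were kept. The 24 libraries of the NCoR table, in 12 groups of 2, were fitted together with edgeR 4.0.16 (filterByExpr, TMM, robust quasi-likelihood F-test, 2-sided) in R 4.3.3, with DESeq2 1.42.0 as an alternative. A count of 3 was the floor of detection, which covers counting error only. An exact permutation test of 2 against 2 libraries cannot reach 0.05. The script was tested on simulated data.

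The compared groups, members and gene lists were chosen with earlier results of these data known. Named genes were Ncor1, Lyz2, Abca1, Scd2, Ccl5 and Ifi44, the 12 genes called higher and the 12 called lower that changed most at 5 CPM or more, the 10 and 10 largest stable ones, up to 4 called members per list, up to 6 abundant interferon genes per list and the NCoR complex. Other genes given with values were chosen after these were seen, as were the clock list and the Pgc1b comparison, which was fitted in its own table. Some genes that count in the lists are not reported here. Promoter sequences are from RefSeq (mm10), and 10136 of 13407 tested genes (75.6%) had a start within 500 bp of a window. Other settings were DESeq2's size factors, other filters on low counts, only the 4 vehicle libraries or the 16 of the same date, the replicate number as a block, each vehicle library left out in turn, and no fold threshold. Figures were drawn with matplotlib 3.10.9.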

Additional observations from a re-analysis of the deposited data

Results flagged for a closer look

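Among 107 named genes, the effect of NKO with a ligand differed from that at rest for the genes listed here, each by a called interaction in edgeR's fit. Many of the 107 were named for a large effect in the vehicle libraries, which also enter the interaction. That choice favours smaller effects with a ligand, so the counts and directions are a description. Over all tested genes, the interaction was called for 3.24% with poly I:C, 0.604% with IFNβ and 0.604% with IL4. The value in parentheses is the log2 fold change of NKO over WT with the ligand minus that at vehicle. With poly I:C, 34 interactions were called, of which 19 were also called without WT_Veh replicate 2. In 3 genes the effect was more negative with poly I:C, namely Mmp13 (-1.58), Klf4 (-1.21) and Scd1 (-1.04). The corepressor subunit gene Tbl1xr1 (0.64), the cholesterol transporter gene Abca1 (0.77) and the receptor gene Ifnar1 (0.83) had a more positive effect.

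Interferon-induced genes made up much of the remainder with poly I:C, all more positive, with Trim30a (0.68), Ifi204 (0.73), Gbp9 (0.83), Gbp7 (1.24), Ly6e (1.28), Gbp6 (1.39), Irf7 (1.39), Ifit1 (1.84), Ifit3 (2.01), Ifi44 (2.09) and Ifit2 (2.12). Myeloid receptors and inflammatory genes followed, with Nlrp3 (0.70), Fcgr1 (0.77), Casp4 (0.86), Ccr1 (1.16), Clec4n (1.54), Clec4e (1.65), Siglece (1.68), Adgre4 (1.79), Cx3cr1 (2.05), Il10 (2.28) and Acod1 (2.58). The others were H2-Eb1 (0.61), Ciita (0.74), Dcstamp (1.09), Cdk1 (1.19) and AW112010 (1.59). Fpr2 (2.51) had 3 and 0 counts in NKO_Veh, so its value depends on the prior count and is no bound. Of the genes listed here, H2-Eb1, Trim30a, Nlrp3, Ifi204, Ciita, Fcgr1, Casp4, Gbp7, Gbp6, Irf7, Clec4n, Siglece, Ifit1, Ifit2 and Fpr2 were not called without WT_Veh replicate 2. The part of that library in the remainder was not tested further.

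With IFNβ, 14 interactions were called, all more positive, and 11 of them also without WT_Veh replicate 2. They were Ccnd1 (0.64), Irgm1 (0.87), Trim30a (1.03), Ifi204 (1.03), Fcgr1 (1.08), Igtp (1.12), Oasl2 (1.13), Gbp9 (1.29), Gbp7 (1.70), Gbp6 (2.06), Ifit3 (2.33), Il10 (2.38), Ifit1 (2.39) and Ifit2 (2.64). Ccnd1, Irgm1 and Gbp6 were not called without that library. With IL4 there were 5, Egr2 (-0.97), Slc27a6 (-0.96), Itgb3 (-0.92), Ifi204 (0.77) and Gbp9 (0.78), of which Egr2 and Itgb3 were also called without WT_Veh replicate 2. Groups of 2 libraries are too small for a test of single outlying samples.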

How the results depend on the processing

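The number of calls depended on the setting. There were 283 to 350 higher and 375 to 504 lower calls when 1 of the 4 vehicle libraries was left out, 305 lower calls when the spread was estimated from the 4 vehicle libraries alone, and 1291 higher and 1399 lower genes without a fold threshold. Without a fold threshold the interactions numbered 1325 (poly I:C), 270 (IFNβ) and 483 (IL4). With 1 library left out they ranged from 346 to 558, from 45 to 258 and from 58 to 279, and with the 16 libraries of the same date the IFNβ interaction was called for 53 genes. The highest of each of these ranges was without WT_Veh replicate 1.

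For LXR targets and fatty acid synthesis, 16 members were called without a fold threshold, and the median, 0.32 as reported, was 0.331 with DESeq2's size factors and with DESeq2, 0.336 with a mean of at least 5 CPM, 0.364 with the 4 vehicle libraries alone and 0.26 to 0.34 with 1 library left out. For interferon-stimulated genes, 6 to 32 members were called and the median ranged from -1.23 to -0.40 with 1 library left out, and 3 were called with the 4 vehicle libraries alone. Among uncalled genes, some changed sign. With 1 vehicle library left out, Gps2 ranged from -0.0016 to 0.099, Irf8 from -0.0027 to 0.025, Coro2a from -0.14 to 0.097, Hdac3 from -0.24 to 0.031 and Parp14 from -0.58 to 0.043, where the value past 0 came without WT_Veh replicate 2 or, for Hdac3 and Irf8, without NKO_Veh replicate 1. Irf8 was also at -0.0020 without WT_Veh replicate 2. The cause of these changes was not tested. The labels do not say whether the replicate numbers pair the samples. Deviations of same-numbered WT_Veh and NKO_Veh libraries correlated at 0.0213, but 2 libraries per group cannot decide this. A fit with the replicate block called 323 genes higher and 513 lower.

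With 2 libraries per genotype, the tests borrow their spread from other genes and groups, and genes with few reads, such as Il10 and Fpr2 in NKO_Veh, are imprecise.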

Other observations

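Genes of the circadian clock were higher in NKO_Veh. The list was written after the values were seen, so its counts are a description. Of 17 tested members, 9 were called higher and none lower (none at an unadjusted p below 0.05 by edgeR and none by DESeq2), 8 of them stable, and the median log2 fold change was 0.76 against -0.01 over all genes. Besides Nr1d1, they were Bhlhe40, a repressor of clock genes (43.5 and 33.0 CPM in WT_Veh and 103 and 113 CPM in NKO_Veh, 1.50 ± 0.09), Npas2, a partner of BMAL1 (6.33 and 9.51 and 20.2 and 20.6 CPM, 1.37 ± 0.16), Dbp, an output factor of the clock (47.2 and 45.4 and 111 and 105 CPM, 1.22 ± 0.07), the period genes Per2 (1.00 ± 0.17) and Per3 (0.88 ± 0.12), Arntl, which encodes BMAL1 (0.82 ± 0.14), Bhlhe41 (0.76 ± 0.07) and Ciart (1.34 ± 0.38). Ciart was not stable. The hour of day at which the cells were collected is not given in the sources used here.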
